A study of Bos taurus with 8 samples.

Results

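The keratin cluster windows are a pair of stretches of the cattle genome (assembly UMD3.1) around the genes for the keratins, the intermediate filament proteins of epithelial cells and hair. The type I window covered 1400 kb of chromosome 19 (chr19:41300000-42700000) and the type II window covered 1200 kb of chromosome 5 (chr5:27000000-28200000). A member was any locus of the expression table that carried a transcript identifier, lay wholly inside a window and spanned 2000 to 20000 bases. By that rule 53 of the 36801 loci of the table were members, 28 in the type I window and 25 in the type II window. The rule used position, span and the presence of an identifier and no expression value, so genes that neighbour the keratins were counted too.

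RNA-Seq was carried out on 8 tissues of cattle, with 1 library per tissue: rumen (the largest forestomach, lined by a stratified squamous epithelium), abomasum (the glandular stomach), ileum, parenchyma of the mammary gland, intercaruncular uterus, whole testes, frontal cortex and nucleated blood cells. No tissue had a treatment or a genotype contrast. The animals of the study were a Hereford cow and her relatives. The labels of the RNA samples give the tissue only; the study's list of the tissues, given for another assay of the same work, records an adult male for testes, adult females for uterus and blood cells, a juvenile female for frontal cortex, mammary gland, abomasum and ileum, and a male fetus for rumen. Tissue therefore cannot be told apart from animal, age, sex and library. With 1 library per tissue there was no replicate, so no difference between tissues was tested and every value below describes a single library. In whole tissues, fewer cells of a type and less RNA per cell cannot be told apart.

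Keratins form filaments only as pairs of a type I and a type II protein. Simple, single-layered epithelia such as those of the gut and of glands are known for KRT8 with KRT18 and KRT19. Stratified epithelia are known for KRT5 with KRT14 and KRT15 in their basal layer and for KRT4 with KRT13 in mucosal upper layers, and hair, nail and hair follicle have keratins of their own. KRT18 is a type I keratin that lies in the type II cluster, beside KRT8.

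The deposited values are FPKM (fragments counted per kilobase of transcript and scaled to the mapped fragments of the library), which allows for length, so levels of different loci may be set side by side. A locus is called expressed where its FPKM was at least 1. From the steps between the lowest values, 1 FPKM stood for 4.42 reads (mammary gland) to 11.3 reads (rumen) where a transcript is 1000 bases long. For a transcript of 2000 bases a floor of 3 reads came to between 0.117 FPKM in rumen and 0.299 FPKM in mammary gland, so values under about that size were not distinguishable from 0 at this depth. These figures cover counting error only.

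Members are named by window and by place along the chromosome, from I-1 to I-28 and from II-1 to II-25, because none of the transcript identifiers could be paired with a gene symbol. A symbol is given below only as a length match: the span of the locus was within 3 bases of that of a RefSeq gene of the same region in a later assembly (ARS-UCD2.0). This procedure was chosen after the data had been seen, and it compares lengths and order, not sequence. In the type I window 8 members matched, 7 of them a keratin gene, and in the type II window 10 matched, 9 of them a keratin gene, always 1 gene per member and in the same order as in RefSeq. Among them were the genes of simple epithelia KRT19 (I-18) and KRT18 (II-3), the mucosal KRT4 (II-7), a run of hair keratins, and a pair of neighbours, GAST (I-25), which encodes the stomach hormone gastrin, and TAMALIN (II-23), which encodes a scaffold protein of neurons. The other 35 members stay without a symbol, II-9 among them: KRT6A and KRT6C of RefSeq are longer than it by 4 and 7 bases, beyond the 3 bases allowed. Reads of near-identical keratin genes can be assigned to the wrong copy, so the levels of single keratin loci are uncertain in that respect.

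Members were expressed less widely than loci of the same span in general. Of the type I members 19 of 28 (67.9%) reached an FPKM of 1 in at least 1 tissue, in the type II window 18 of 25 (72.0%), and of all 7398 loci with an identifier and a span within the same limits 85.6%. Expression in all 8 tissues was seen in 3 type I members and 4 type II members, 7 of 53 (13.2%), beside 45.2% of all such loci. The tau index, which is 0 for equal levels in every tissue and 1 for expression in a single tissue, was computed on log2(FPKM + 1) of expressed loci. Its median was 0.83 in the type I window (interquartile range 0.45 to 0.92), 0.67 in the type II window (0.47 to 0.85) and 0.42 over all expressed loci of that span.

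Of the remaining members, 13 had values above 0 that stayed under 1 in every tissue, with a highest value of 0.923 FPKM (I-13 in blood cells), and 3 members (5.66%), I-6, I-14 and I-23, were listed at 0 in all 8 libraries, as were 7.87% of all loci of that span. I-23 shares its position and identifier with I-22. At the other end, 5 members exceeded 1000 FPKM somewhere: I-17, I-18 and I-21 in the type I window, and II-4 and II-9 in the type II window.

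**Figure D1:**
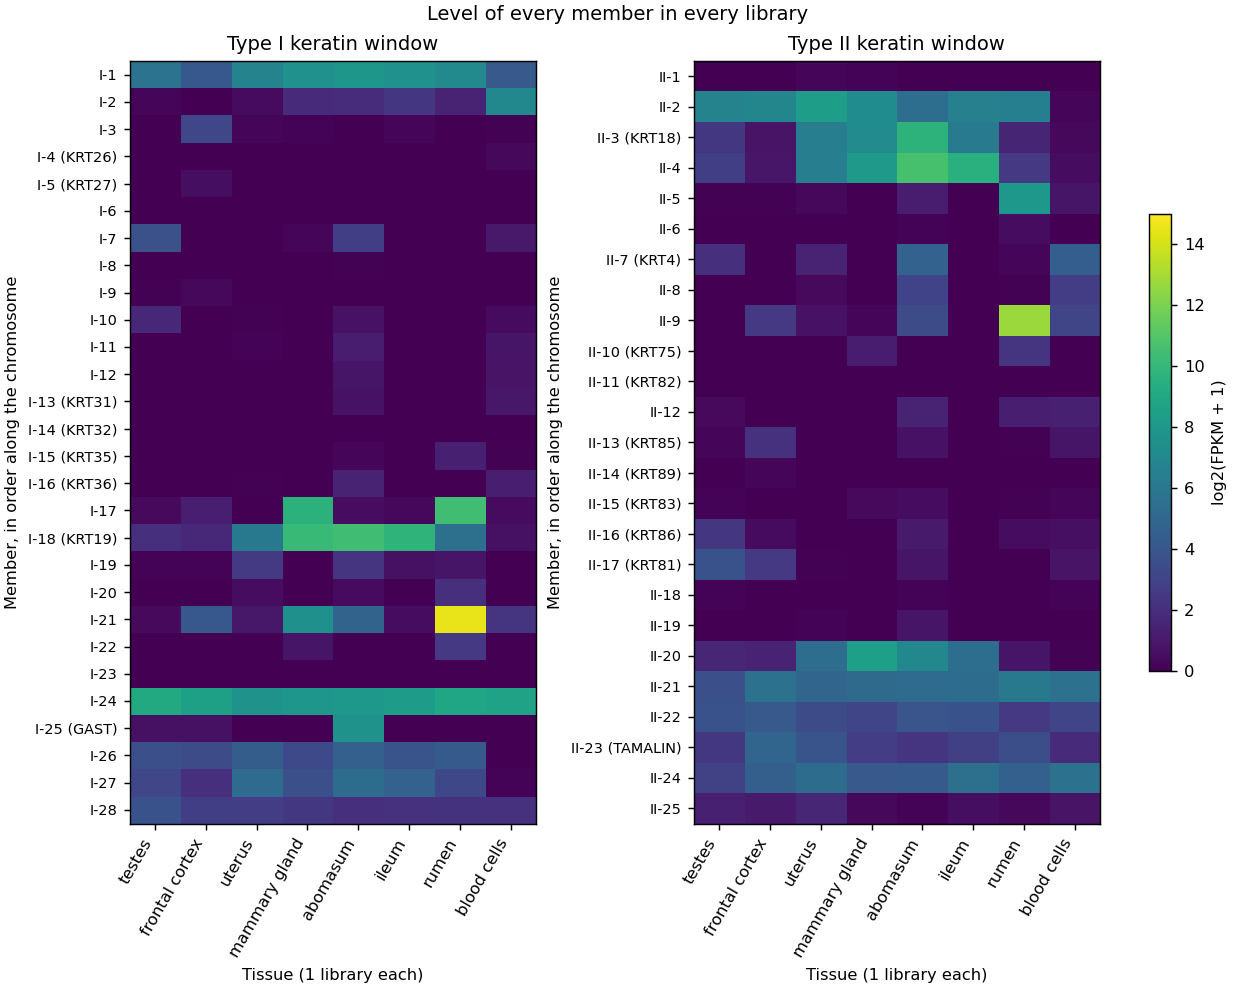
Levels of all 53 members in the 8 libraries. Rows are members in order along the chromosome (length matches in brackets), columns are tissues with 1 library each, and colour is log2(FPKM + 1); the brightest cells are I-21 and II-9 in rumen, while most keratin loci of both windows are dark in most tissues.

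Read tissue by tissue, abomasum had the most expressed members and blood cells and ileum few. In abomasum 13 type I and 14 type II members were expressed (background 62.8%), and in rumen 12 and 11 (background 61.0%). Testes had 8 and 12 (background 69.7%), frontal cortex 9 and 10 (63.4%), uterus 7 and 10 (63.1%) and mammary gland 9 and 9 (63.4%). Ileum had 7 and 8 (64.8%) and blood cells 6 and 8 (56.1%). As shares, the type I window ran from 21.4% in blood cells to 46.4% in abomasum and the type II window from 32.0% in ileum and blood cells to 56.0% in abomasum, so both lay under the background in every library, and the type II share was the higher of the pair in every library. These shares were not tested.

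**Figure D2:**
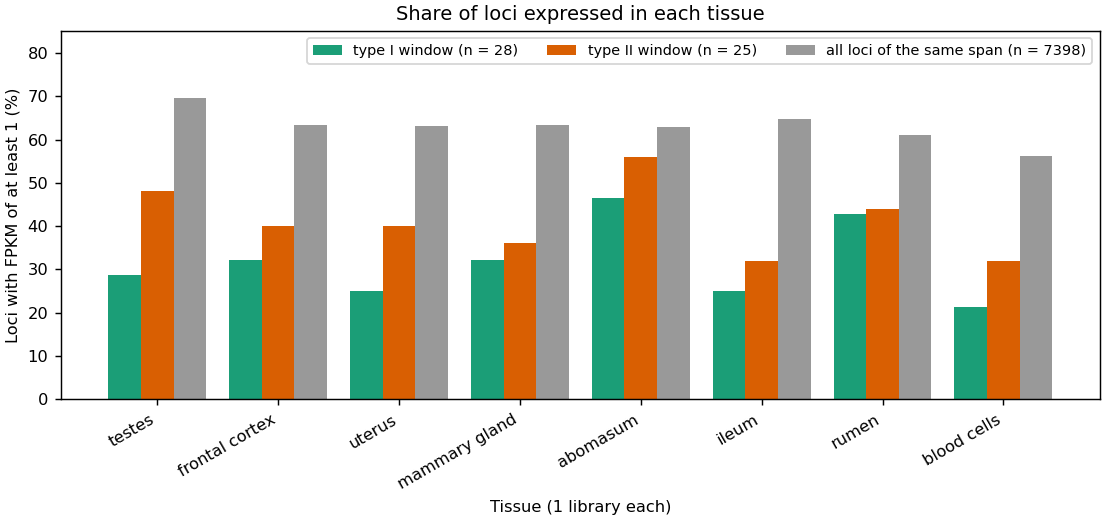
Share of loci with an FPKM of at least 1 (vertical axis, in percent) in each of the 8 tissues, 1 library each, for the type I window (28 members), the type II window (25 members) and all 7398 loci with an identifier and the same limits of span. Both windows stay under the grey background bars in every tissue and come nearest to them in abomasum.

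Abomasum was the highest tissue of 7 of 19 expressed type I and 5 of 18 expressed type II members, beside 7.77% of all expressed loci of that span. Rumen was that of 5 and 4 (background 16.6%). Testes, which held 27.5% of all such loci, was the highest tissue of 4 type I and 2 type II members. Ileum was that of 0 members (background 5.01%) and mammary gland that of 1 (background 4.96%). In the type I window the order of abomasum and rumen turned with the neighbours: among the expressed members between the flanks, rumen was highest for 5 of 12 and abomasum for 3. In the type II window it did not turn, with abomasum highest for 5 of 14 and rumen for 4.

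Enrichment in a tissue was called if FPKM + 1 there exceeded the second highest tissue by a factor of 5 or more. Enriched members numbered 4 of 28 in the type I window and 3 of 25 in the type II window, 13.2% of all members, beside 15.5% of all loci of that span. In rumen there were 1 type I and 2 type II members (I-21, II-5 and II-9; background 1.12%), in abomasum 1 and 1 (I-25 and II-3; background 0.635%). Frontal cortex had I-3 alone (background 3.19%) and blood cells had I-2 alone (background 1.32%). I-2, I-3 and I-25 lay in the flanks described below, and the other enriched members lay in the stretch between.

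The rumen held the highest levels of both windows. I-21 (chr19:42472430-42490861), a locus that names 2 transcripts, measured 23113 FPKM in rumen, 182 in mammary gland, 25.9 in abomasum, 16.4 in frontal cortex, 3.74 in blood cells, 0.957 in uterus, 0.407 in ileum and 0.301 in testes. Its rumen value ranked 2 among the 7398 loci of that span, and on the FPKM + 1 scale it was 127 times the value of mammary gland, the next tissue. I-21 is the longest member of its window (18432 bases), and its 2 transcripts are reported as a single value.

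II-9 (chr5:27558902-27564151, transcript ENSBTAT00000000396) measured 6942 FPKM in rumen, 9.996 in abomasum, 7.83 in blood cells, 4.70 in frontal cortex, and for uterus and mammary gland 0.669 and 0.198, and was listed at 0 in testes and ileum. The rumen value ranked 19 among loci of that span and was 631 times the abomasum value on the FPKM + 1 scale. The other type II member enriched in rumen, II-5 (chr5:27258342-27266306), measured 256 FPKM in rumen, 1.17 in abomasum, 0.835 in blood cells, 0.237 in uterus, 0.0735 in testes, 0.0734 in frontal cortex and 0 in mammary gland and ileum. Both thus stood at 256 FPKM or more in rumen and at 9.996 FPKM or less in every other library.

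I-17 (chr19:42356580-42361460) was high in rumen and in mammary gland alike. It measured 1356 FPKM in rumen, 789 in mammary gland, 1.43 in frontal cortex, 0.427 in abomasum, 0.352 in blood cells, 0.300 in testes, 0.260 in ileum and 0 in uterus, so that mammary gland reached 58.2% of the rumen level. For I-21 the mammary gland reached 0.786% of the rumen level, whereas the value of II-9 there, 0.198 FPKM, lay under the floor of 3 reads on 2000 bases in that library (0.299 FPKM). RefSeq places KRT15 next to KRT19 in the later assembly, but its length did not match I-17, which lies next to the KRT19 match and is left unnamed.

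With I-17, I-21 and II-9, 3 of 53 members (5.66%) reached at least 1000 FPKM in rumen, as did 1.62% of all loci of that span. Several expressed members of lower level were highest in rumen as well. They were I-15 (length match KRT35, a hair keratin) at 1.48 FPKM, I-20 at 3.03, I-22 at 4.59 and II-10 (length match KRT75, a hair follicle keratin) at 3.83. II-10 was otherwise above 0 in mammary gland alone, at 1.27 FPKM, and I-22 likewise, at 0.782 FPKM. II-21 (chr5:27962235-27968039) was highest in rumen at 66.9 FPKM too, but it was expressed in every library, from 11.5 FPKM in testes upwards.

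The simple epithelial keratins by length match, I-18 and II-3, were highest in abomasum, with I-18 close behind in mammary gland and ileum. I-18 (chr19:42366660-42370493, length match KRT19, transcript ENSBTAT00000006450) measured 1347 FPKM in abomasum, 1108 in mammary gland, 851 in ileum, 65.4 in uterus, 45.7 in rumen, 3.22 in testes, 2.31 in frontal cortex and 0.590 in blood cells. In the type II window, II-3 (chr5:27171925-27175575, length match KRT18) measured 813 FPKM in abomasum, 151 in mammary gland, 84.8 in uterus, 72.8 in ileum, 4.49 in testes, 1.92 in rumen, 0.750 in frontal cortex and 0.250 in blood cells. Both were highest in abomasum and lowest in blood cells, with uterus, mammary gland and ileum between.

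II-4 (chr5:27212092-27221179), the member next to II-3, measured 1620 FPKM in abomasum, 720 in ileum, 273 in mammary gland, 84.5 in uterus, 5.92 in testes, 4.54 in rumen, 0.851 in frontal cortex and 0.432 in blood cells. KRT8 lies beside KRT18 in RefSeq, but its length did not match II-4, which is left unnamed. Among loci of that span in abomasum, II-4 ranked 29, I-18 ranked 45 and II-3 ranked 81. In rumen the order was turned around: all 3 lay under 50 FPKM there, while I-17, I-21 and II-9 lay above 1000 FPKM. II-3 met the criterion of enrichment in abomasum (5.37 times mammary gland on the FPKM + 1 scale), a call that was lost once the libraries were rescaled to a common upper quartile, whereas I-18 and II-4 did not, since their next tissues stood at 1108 FPKM (mammary gland) and 720 FPKM (ileum).

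II-20 (chr5:27828982-27842880) was the expressed member with its highest level in mammary gland. Mammary gland measured 353 FPKM, followed by 129 in abomasum, 41.8 in ileum, 39.3 in uterus, 2.07 in testes, 1.69 in frontal cortex, 0.803 in rumen and 0.0799 in blood cells. It was therefore high in the same group of tissues as I-18, II-3 and II-4, and under 1 FPKM in rumen.

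**Figure D3:**
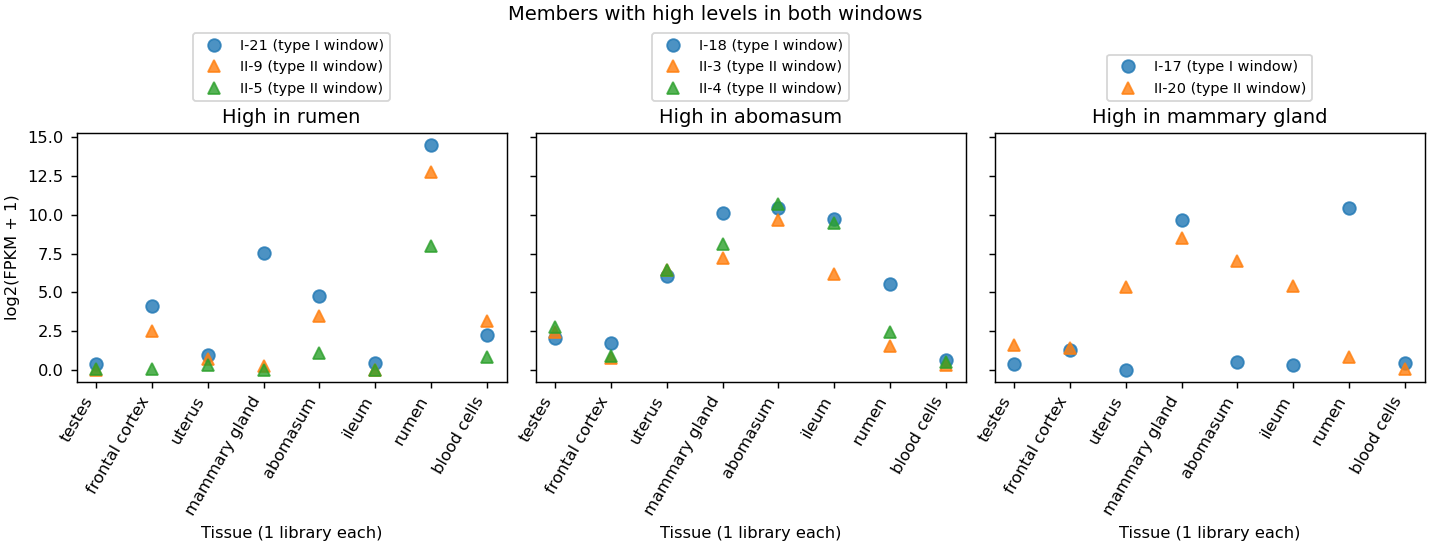
Levels of high members of the type I window (circles) and the type II window (triangles) in the 8 tissues, 1 library each, as log2(FPKM + 1). Left, I-21, II-9 and II-5 stand highest in rumen; centre, I-18, II-3 and II-4 all stand highest in abomasum and lowest in blood cells, and mammary gland lies above ileum for I-18 and II-3 and below it for II-4; right, I-17 and II-20 are both high in mammary gland and part in rumen, where I-17 measured 1356 FPKM and II-20 0.803 FPKM.

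Likeness between members of the 2 windows was described by Pearson's r of log2(FPKM + 1) over the 8 tissues, for the member highest in rumen, abomasum or mammary gland against the expressed members of the other window. The points are single libraries shared by every member, and r is given with no test. I-18 was most like II-4 (r = 0.95), II-3 (0.90) and II-20 (0.89). From the other side, II-4 was most like I-18, then I-1 (0.86) and I-27 (0.84), of which the last 2 are flanking members not matched to a keratin. II-20 was most like I-18 too, followed by I-1 (0.76) and I-27 (0.74).

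For the members that were highest in rumen, the most alike were not the most abundant. I-21 was most like II-10 (r = 0.94), then II-9 (0.86) and II-5 (0.85), and II-9 was most like I-15 (0.97) and I-20 (0.93) before I-21 (0.86). II-10, I-15 and I-20 reached no more than 3.83 FPKM in any tissue. These relations leaned on the rumen library: without it, r was 0.76 for I-21 with II-10, 0.28 with II-9 and 0.10 with II-5, and for II-9 0.79 with I-15 and 0.25 with I-20. Outside rumen, II-10 was above 0 in mammary gland alone, and I-15 in abomasum (0.138 FPKM) and blood cells (0.0683 FPKM) alone, near or under the floor, so the values of 0.76 and 0.79 rest on these libraries and are no measure of likeness. Leaving out abomasum moved r of I-18 with II-4 to 0.94.

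Summed over a window, the members came to 25172 FPKM in rumen for the type I window and 7409 FPKM for the type II window. In mammary gland the sums were 2541 and 1002 FPKM, in abomasum 2150 and 2728, and in ileum 1389 and 1029. The others were lower, at 445 and 625 FPKM in uterus, 551 and 150 in blood cells, 665 and 173 in testes and 425 and 252 in frontal cortex. The type I sum was thus above the type II sum in 6 tissues, by up to 3.84 times in testes, and below it in uterus (0.712 times) and abomasum (0.788 times). Without the flanking members the uterus turned to 1.11 times and testes moved to 10.1 times (579.6 against 57.4 FPKM), frontal cortex to 4.72 times, and abomasum stayed below at 0.617 times. The evenly expressed I-24 was 84.41% of the type I sum in testes, 84.75% in frontal cortex and 71.04% in blood cells. Without the flanking members it was 96.83%, 94.49% and 97.46% of these sums. II-2, a flanking member, was 59.48% of the type II sum in testes and 47.07% in frontal cortex. The type I sums of these tissues are thus largely the level of 1 locus. The ratios include members not matched to a keratin, such as I-24 and II-2, and KRT18 is a type I gene by protein. They are therefore no ratio of type I to type II keratin.

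Rumen held 75.5% of the type I sum over all tissues and 55.4% of the type II sum. Over all loci of that span the shares were 19.3% in rumen, 11.3% in mammary gland and 13.4% in abomasum. In each window 1 member made up nearly all of the members' sum in rumen. I-21 was 91.8% of the type I sum in rumen, and II-9 was 93.7% of the type II sum. Without I-21 the rumen share of the type I window was 20.6% and the largest share was that of mammary gland (23.6%). Without II-9 the rumen share of the type II window was 7.28% and the largest share was that of abomasum (42.5%). Loci of the windows left out by the rule are not in these sums. In rumen they measured up to 6224 FPKM in the type I window and up to 4840 FPKM in the type II window. These shares therefore depend on the limits of the rule.

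Hair keratins by length match were near or under 1 FPKM in most libraries. Of the 9 such members (KRT31, KRT32, KRT35, KRT36, KRT81, KRT82, KRT83, KRT85 and KRT86), 5 were expressed in at least 1 tissue, beside the 85.6% of all loci of that span, and the median of their highest values was 1.48 FPKM. The highest was II-17 (length match KRT81), with 12.6 FPKM in testes, 4.66 in frontal cortex, 0.793 in abomasum, 0.764 in blood cells, 0.0751 in uterus and 0 in mammary gland, ileum and rumen. II-16 (KRT86) was highest in testes as well, at 4.18 FPKM, and II-13 (KRT85) in frontal cortex, at 3.40 FPKM. KRT32 (I-14) was listed at 0 in every library. II-14 (length match KRT89), which lies in the same run and was put in no group, reached 0.203 FPKM at most, in frontal cortex.

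Of the 3 hair follicle keratins by length match, KRT26 (I-4) and KRT27 (I-5) stayed at or under 0.469 FPKM in every library, and KRT75 (II-10) reached the 3.83 FPKM in rumen given above. Members I-4 to I-16 of the type I window formed an unbroken run of 13 in which 1 member passed 5 FPKM in any tissue: I-7, with 11.99 FPKM in testes, 5.75 in abomasum and 0.998 in blood cells. A locus within this run that is too long to be a member (chr19:41719376-41789031) measured 196 FPKM in abomasum, 198 in ileum, 0.278 in testes and 0 in the other 5 libraries.

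Some members shared a pattern of low levels in abomasum and blood cells that was noticed after the values had been seen. They were above 0 in both of these libraries and listed at 0 in mammary gland, ileum and rumen. This held for 5 of 28 type I members (I-10, I-11, I-12, I-13 and I-16, of which I-13 is a length match of KRT31 and I-16 of KRT36) and 2 of 25 type II members (II-17 and II-18), beside 0.338% of all loci of that span. The pattern was drawn from these members. Loci expressed in at least 7 tissues (52.2% of all loci of that span) cannot meet it, so the gap between the shares is partly built in. Their levels were 0.651 to 1.82 FPKM in abomasum and 0.329 to 1.43 FPKM in blood cells in the type I window, and the ratio of abomasum to blood cells ran from 0.706 to 2.04. Outside these libraries I-10 reached 2.38 FPKM in testes, and II-17 had its higher levels in testes and frontal cortex given above. II-17 measured 0.793 FPKM in abomasum and 0.764 in blood cells (ratio 1.04). II-18 measured 0.0855 and 0.0856 FPKM, under the floors of 3 reads on 2000 bases in these libraries (0.135 and 0.151 FPKM), so it was not distinguishable from 0 there.

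II-7 (chr5:27291350-27298263, length match KRT4, a keratin of mucosal stratified epithelia) was high in the same pair of libraries. It measured 25.7 FPKM in abomasum, 21.8 in blood cells, 3.04 in testes, 1.78 in uterus, 0.148 in rumen and 0 in frontal cortex, mammary gland and ileum. Beside it, II-8 measured 7.18 FPKM in abomasum and 5.54 in blood cells and stayed under 0.3 FPKM elsewhere. Abomasum and blood cells differed widely in other members, for example 1347 against 0.590 FPKM for I-18. The cause of the shared pattern was not tested.

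By median tau, members in the flanks of the windows were broader in expression than those between, but the type I flanks were mixed. The flanks held 7 type I members (I-1 to I-3 and I-25 to I-28) and 5 type II members (II-1, II-2 and II-23 to II-25), the stretch between running from the first member matched to a keratin up to the matched neighbour behind the cluster (GAST or TAMALIN). Unmatched members of that stretch need not be keratins, and unmatched flanking members may be keratins. Median tau of expressed members was 0.86 between and 0.40 in the flanks of the type I window, and 0.80 and 0.37 in the type II window. Expression in at least 7 of 8 tissues was seen in 4 of 7 flanking and 2 of 21 other members of the type I window, and in 3 of 5 and 2 of 20 of the type II window, beside 52.2% of all loci of that span. Enriched in a tissue were 3 of 7 flanking and 1 of 21 other members of the type I window, and 0 of 5 and 3 of 20 of the type II window. The share over all loci of that span was 15.5%. No difference was tested.

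Of the members expressed broadly, the flanking I-1 (chr19:41326587-41339957) was expressed throughout, from 16.3 FPKM in frontal cortex and 17.1 in blood cells to 242 in abomasum. II-2 (chr5:27044001-27048226) ran from 41.0 FPKM in abomasum to 320 in uterus, with 0.185 in blood cells as the exception. I-27 was likewise lowest in blood cells, at 0.0978 FPKM, and reached 38.6 FPKM in abomasum. I-24 (chr19:42545572-42549344), which is no flanking member but the last before GAST, had the lowest tau of the 37 expressed members (0.096), between 207 FPKM in uterus and 561 FPKM in testes.

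Some flanking members marked a single tissue. I-25 (length match GAST) measured 197 FPKM in abomasum, 0.614 in testes and 0.593 in frontal cortex and was listed at 0 in the other 5 libraries. I-2 (chr19:41426569-41440074) measured 129 FPKM in blood cells and at most 4.25 FPKM elsewhere. I-3 (chr19:41514937-41524688) measured 8.22 FPKM in frontal cortex and at most 0.151 FPKM elsewhere. II-23 (length match TAMALIN) was highest in frontal cortex too, at 29.2 FPKM, but was expressed in all 8 libraries, down to 2.64 FPKM in blood cells.

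**Figure D4:**
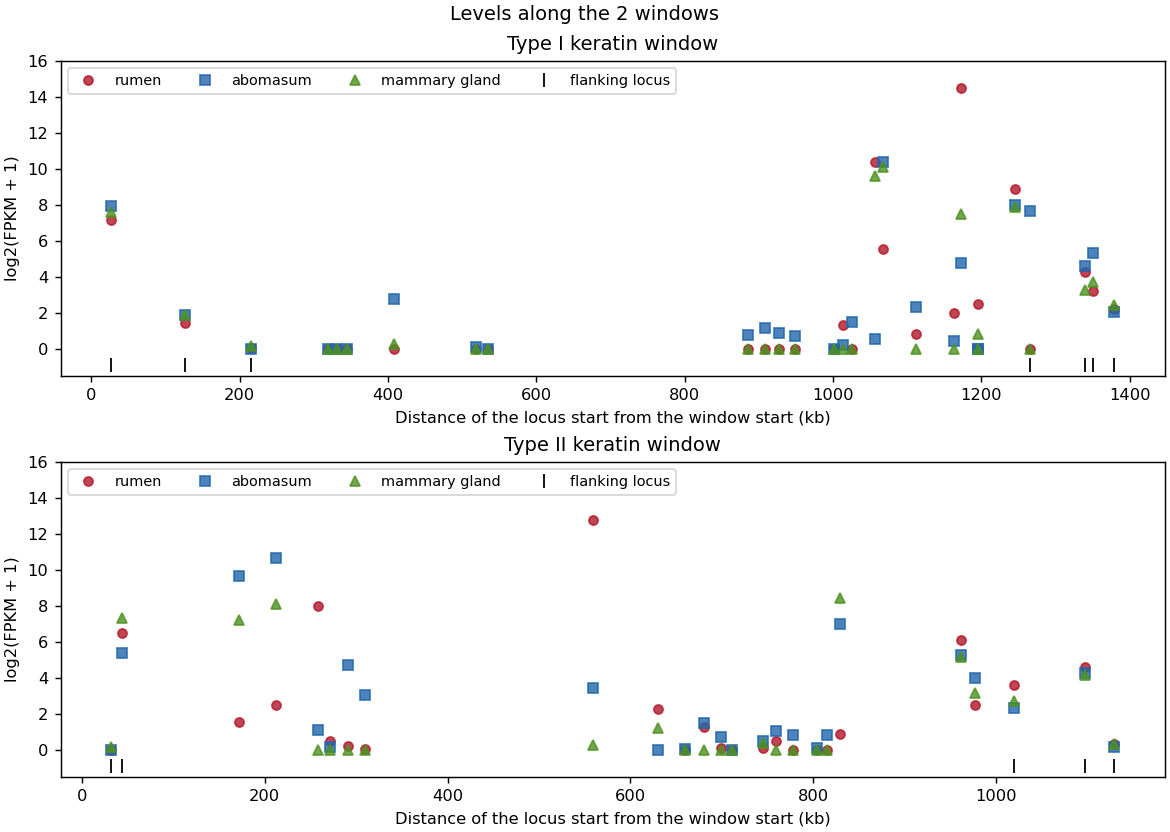
Levels along the windows: log2(FPKM + 1) of each member in rumen (circles), abomasum (squares) and mammary gland (triangles) against the distance of its start from the window start in kb, with flanking members ticked at the bottom. In the type I window the flanking I-1 is high near the start (27 kb), a long run of low loci follows, and I-17 and I-18 are high from 1057 kb on; in the type II window the levels of the loci named here are high at 172 and 212 kb (II-3 and II-4), 559 kb (II-9) and 829 kb (II-20).

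Along the chromosomes, the type I members over 1000 FPKM, I-17, I-18 and I-21, start within 1057 to 1172 kb of the window start, I-17 and I-18 next to each other. In the type II window II-3, II-4 and II-5 follow each other at 172, 212 and 258 kb, and II-9 at 559 kb and II-20 at 829 kb stand apart from them. Adjoining members could differ in tissue: I-17 was 0.427 FPKM in abomasum, where I-18 was 1347 FPKM, and II-4 was 4.54 FPKM in rumen, where II-5 was 256 FPKM.

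The limits of span decided which abundant loci were members. The longest member of the type II window spans 18688 bases (II-14, highest 0.203 FPKM) and the shortest locus beyond the limit spans 21909 bases and measured 4840 FPKM in rumen. Among type I members the longest is I-21 and the next longer locus, of 21537 bases, measured 116 FPKM in testes. The shortest members span 2153 bases (I-20, highest 3.03 FPKM) and 2629 bases (II-25, highest 2.10 FPKM), and the longest loci under the limit span 1080 bases (highest 0.424 FPKM) and 1274 bases (highest 105 FPKM).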

How the data were processed

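RNA of 8 cattle tissues, 1 library each, was sequenced by the authors as single-end reads of 100 bases. Per the labels and the study's methods the reads were aligned to UMD3.1 with TopHat2 (version 2.0.13) and quantified and compared with Cufflinks. The authors deposited a table of pairwise comparisons whose FPKM values were used here, 1 value per locus and tissue. Its log2 fold changes, test statistics, p-values and q-values are the authors' own comparisons and were not used.

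Members were taken by position, span and identifier. The members and the gene lists were chosen with earlier results of these data known. Symbols were matched by span (within 3 bases) to RefSeq genes of ARS-UCD2.0 among the keratin genes and 15 genes on each side. 0 identifiers matched a symbol directly. The tau index and likeness used log2(FPKM + 1). Reads per FPKM were estimated from the steps between FPKM values of loci of 88 to 130 bases, with fragments of mean 200 and SD 80 bases and a lower limit of 87. Between 97.7% and 100.0% of these values came out as whole reads within 0.03. The function that calls enrichment was tested on simulated data, and that of the tau index on rows of known tau.

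Named members were the 5 highest of each window, the highest of each window in each tissue, every enriched member, and the 3 most alike in the other window. Other members were named after their values were seen. The alternatives were other thresholds, folds, pseudocounts and limits of span, rescaled libraries, and left-out loci or libraries. Python 3.11.15, numpy 2.4.6 and pandas 2.3.3 were used.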

Additional observations from a re-analysis of the deposited data

Results flagged for a closer look

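Loci inside the windows that the rule leaves out also carried signal in rumen. In the type I window, a locus without an identifier (chr19:42343668-42348141) measured 1481 FPKM in rumen, 55.3 in abomasum and 48.4 in blood cells, and a locus over the limit of span (chr19:42430195-42463325) measured 6224 FPKM in rumen and 52.3 in mammary gland. In the type II window, a locus of 211364 bases that spans several genes (chr5:27336268-27547631) measured 4258 FPKM in rumen and 348 in mammary gland, and a locus of 21909 bases (chr5:27577800-27599708) measured 4840 FPKM in rumen, 8.06 in abomasum and 5.16 in blood cells. They drew attention because they are data outside the comparisons above with levels over 1000 FPKM in a library. There was no control library to set them against.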

How the results depend on the processing

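No paired analysis was possible because a tissue is represented by a single library and no test was run. A count or a share was taken as held up to a change of 1.5 times, and an r where it moved by less than 0.1. For the median tau the tolerance was the interquartile range of the members, which is wide, and all 16 alternative values lay within it; with members of at least 5 FPKM the medians of the windows came closer, to 0.65 (type I) and 0.63 (type II). Held values numbered 9 of 12 of likeness, 84 of 104 of enriched members, 65 of 106 of expressed members, 36 of 48 of members highest in a tissue and 50 of 80 of shares of summed FPKM. A count of 0 that stayed at 0 was taken as held too, for example type I members enriched in testes at a fold of 10. The tallies of enriched members and of members highest in a tissue therefore overstate how often a call held. With an FPKM threshold of 5, 12 type I members were expressed in at least 1 tissue in place of 19, 7 in place of 12 in rumen, and 6 type II members in place of 11 in rumen; 2 type I members in place of 5 were then highest in rumen. With no limit on span, 34 type I and 29 type II members were expressed in at least 1 tissue, 20 and 20 in rumen, and 3 and 5 were enriched in rumen. Without the flanking loci, an alternative chosen after seeing the data, 12 type I members were expressed in at least 1 tissue and 7 in rumen. Type I members enriched in rumen numbered 4 at a fold of 2, 4 with a pseudocount of 0.1 and 0 without loci of several transcripts, in place of 1. II-3, the type II member enriched in abomasum, lost that call at a fold of 10 and with libraries rescaled. The rumen share of the type I window was 20.6% without the most abundant member and also without loci of several transcripts (I-21 being such a locus), and that of the type II window 7.28% without its most abundant member. For I-21 with II-10, Spearman's rho was 0.76 and r without rumen was 0.76, and for II-9 with I-15 r without rumen was 0.79. Depth limits values below the floors given in the report.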
